A study of Homo sapiens with 3 samples.

Results

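The genes described here are 10 receptor tyrosine kinase genes: Egfr, Erbb2, Erbb3, Met, Axl, Mst1r, Igf1r, Insr, Fgfr1 and Ddr1. They were named as growth factor receptors that are expressed in mesothelioma or limited by merlin. The rule uses no measured value, but it was written with earlier results of these data known. Of the 13936 genes in the deposited table, 9 of these 10 had a row. Mst1r, the receptor for macrophage-stimulating protein, was not analysed here. All 9 genes also passed the filter on low values, a mean of at least 10 scaled counts over the libraries.

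AB12 is a mouse mesothelioma cell line grown in culture. The study measured polyA RNA in 1 library labelled shSC, read here as the control hairpin, and in 2 libraries labelled shNF2, which are called library 20 and library 21 after the numbers in their titles. In the table's column names shSC carries the tag WT, and the shNF2 libraries the tag KD. The labels do not give the hairpin sequences, the time since transduction or whether the libraries came from separate cultures or clones, so the p-values reflect no more than the spread among these libraries, which could be technical. Although the organism is given as human in the labels, the table carries mouse Ensembl identifiers, and the values were treated as mouse.

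A receptor tyrosine kinase spans the plasma membrane. For many receptors of this class, a ligand brings receptors together and their kinase domains phosphorylate each other. Adaptors then pass the signal to RAS and ERK and to PI3-kinase. Signalling ends when the receptor is ubiquitinated, internalised and sorted to lysosomes. Merlin, the product of Nf2, lies under the membrane at the cortical actin network and is known for restraining receptors of this class when cells are crowded, largely by holding back their movement and internalisation. The libraries measured transcript levels, and not receptor protein, its place at the surface or its phosphorylation.

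The libraries held 25837151 to 29532600 reads in genes, and the receptor genes had 55 to 8625 reads in a library. Nf2 itself had 1539 scaled counts with shSC, against 486 in library 20 and 458 in library 21. Its log2 fold change, -1.70 ± 0.24 (SE), passed with a limma adjusted p of 0.00555, so the labels and the targeted transcript went the same way. Of 10 mesothelial markers 5 had a row, Msln, Krt7, Krt8, Krt18 and Krt19. Msln, which encodes mesothelin, had 7397 scaled counts with shSC, against 9722 in library 20 and 8977 in library 21 and did not pass (limma adjusted p = 0.688). Krt7, a keratin gene, rose from 49.7 to 290 and 183 (log2 fold change 2.19; limma adjusted p = 0.0119). The keratin genes Krt8, Krt18 and Krt19 had log2 fold changes of -0.37, -0.36 and -0.86, and none of these 3 passed (limma adjusted p = 0.664, 0.694 and 0.0996), although Krt19 did without the filter on low values (0.0321). The 5 markers, of which Krt18 gave most, summed to 43900 in shSC, against 39947 in library 20 and 33759 in library 21. Of 10 macrophage markers 3 had a row, Cd68, Lyz2 and Cd14, with sums of 3367, 2942 and 1855, of which Cd14 gave most. Cd14 had 3222 scaled counts with shSC, against 2576 in library 20 and 1659 in library 21. Lyz2 went the other way, with 56.5, 260 and 108, and Cd68 had 88.6, 105 and 87.5. None of these 3 passed (limma adjusted p = 0.440 for Cd14, 0.191 for Lyz2 and 0.956 for Cd68). Of 10 fibroblast and smooth muscle markers 3 had a row, with sums of 14.6 in shSC and 90.4 in library 21. Acta2 gave most of the latter, with 69.0 scaled counts in library 21 against 0.974 in shSC and 1.05 in library 20. The 6 endothelial and 8 lymphocyte markers had 0 rows. The part of these marker differences in the results below was not tested.

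None of the 9 receptor genes passed the test. For shNF2 against shSC, limma called 0 of them higher and 0 lower at an adjusted p under 0.05, and edgeR and DESeq2 also called 0. Over all 12813 genes tested, 0.414% were called higher and 0.429% lower. At an unadjusted p under 0.05, 3 of the 9 were higher (Egfr, Met and Axl), beside 4.36% of all genes tested that were higher by that rule. By the same rule 0 of the 9 were lower, beside 629 of the 12813 genes tested. The number of receptor genes at an unadjusted p under 0.05 was 3 with DESeq2, 2 with edgeR and 1 with limma without a variance trend. Both shNF2 libraries lay above shSC for 4 of the 9, Egfr, Met, Axl and Erbb2, beside 36.1% of all genes. Both lay below it for 2, Erbb3 and Fgfr1, beside 35.8% of all genes. The shNF2 libraries lay on either side of shSC for Igf1r, Insr and Ddr1. Of all 12813 genes tested, 3596 had these libraries neither both above nor both below shSC. The median log2 fold change of the 9 was 0.19, beside -0.0043 over all genes tested. Both shNF2 libraries were set against the same lone shSC library, so a chance deviation of that library enters both values of every gene.

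**Figure D1:**
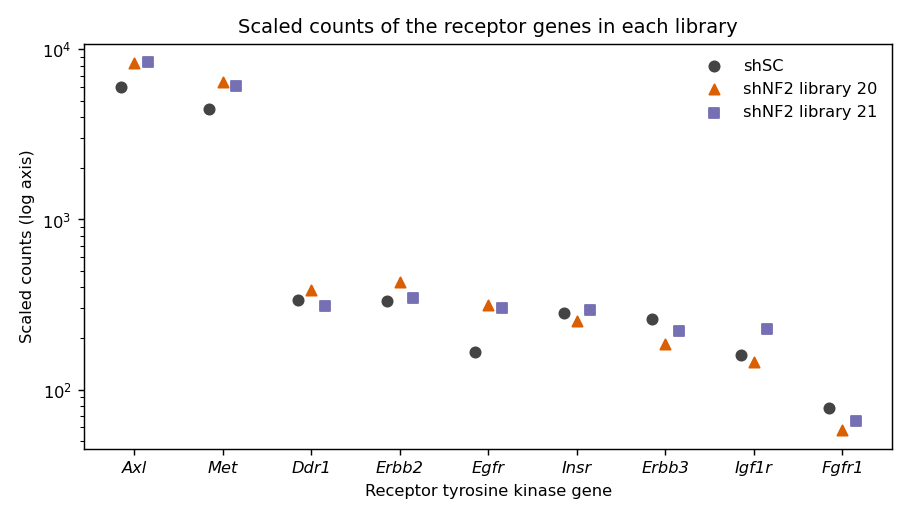
Scaled counts (log axis) of the 9 receptor genes in shSC (circles), shNF2 library 20 (triangles) and shNF2 library 21 (squares), 1 point per library. Egfr, Met and Axl have both shNF2 libraries above shSC with the triangle and the square close together, whereas the points of Igf1r, Insr and Ddr1 lie on either side of shSC.

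**Figure D2:**
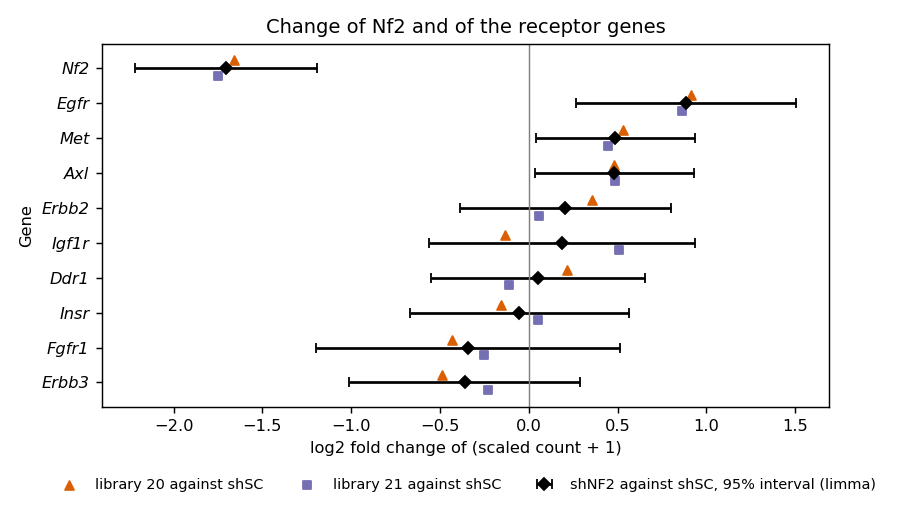
The log2 fold change of (scaled count + 1) for Nf2 and the 9 receptor genes, with black diamonds for shNF2 against shSC, bars for the 95% interval from limma, and coloured points for each shNF2 library against shSC. The interval of Nf2 runs from -2.22 to -1.19, and among the receptors the unadjusted intervals of Egfr, Met and Axl lie above 0.

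The receptors of the ErbB family differed in where their values lay. Egfr encodes the receptor for epidermal growth factor, amphiregulin, betacellulin and related ligands. It had 166 scaled counts with shSC, against 314 in library 20 and 303 in library 21. Both shNF2 libraries were above shSC, and they differed from each other by less than counting error, with a ratio of library 21 to library 20 of 0.966 (exact 95% interval 0.822 to 1.14). The log2 fold change was 0.89 ± 0.29 (SE; unadjusted limma 95% interval 0.27 to 1.503; adjusted p = 0.266), a 1.85-fold level. The ratios of scaled counts to shSC were 1.88 (exact 95% interval 1.56 to 2.29) in library 20 and 1.82 (1.51 to 2.21) in library 21. These exact intervals, here and below, cover counting error only and not the spread between cultures.

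Erbb2 encodes the receptor that has no ligand of its own and serves as the partner of the other ErbB receptors. It had 333 scaled counts with shSC, against 427 in library 20 and 346 in library 21. Library 21 lay close to shSC and library 20 above both. Erbb2 had a log2 fold change of 0.21, with an interval from -0.39 to 0.80 (limma adjusted p = 0.859). Erbb3, the neuregulin receptor with a weakly active kinase domain, had 259 scaled counts with shSC, against 184 in library 20 and 221 in library 21. Both shNF2 libraries were below shSC. Its log2 fold change was -0.36, with an interval from -1.01 to 0.29 (limma adjusted p = 0.768). Within a library, the ratio of Egfr to Erbb3 scaled counts was 0.643 in shSC, 1.70 in library 20 and 1.37 in library 21. The ratio of Egfr to Erbb2 was 1.47 times that of shSC in library 20 and 1.75 times in library 21. These ratios compare counts that are not divided by transcript length, so only their change between libraries can be read. Erbb4 was not analysed here.

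Among the tested ligands of Egfr, 2 passed, both lower, beside 0.429% of all genes tested that were called lower. The other tested ligands of Egfr did not pass. Btc, which encodes betacellulin, fell from 4250 scaled counts with shSC to 948 in library 20 and 1058 in library 21 (log2 fold change -2.08 ± 0.22, SE; limma adjusted p = 0.000993). Areg, which encodes amphiregulin, fell from 7488 to 2711 and 2129 (-1.64 ± 0.22, SE; limma adjusted p = 0.00482). Ereg, which encodes epiregulin, had 12814 scaled counts with shSC, against 8521 in library 20 and 7505 in library 21 and did not pass (limma adjusted p = 0.243). The ratio of Egfr to Areg scaled counts in library 20 was 5.20 times that in shSC, and in library 21 it was 6.41 times that in shSC.

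Met and Axl had the highest levels of these receptors per kilobase of coding sequence. Met encodes the receptor for hepatocyte growth factor. It had 4470 scaled counts with shSC, against 6452 in library 20 and 6087 in library 21, and both shNF2 libraries were above shSC. The log2 fold change was 0.49 ± 0.21 (SE; limma 95% interval 0.04 to 0.93; adjusted p = 0.476). Met had 4591 to 6262 reads in a library, so counting error was small beside this difference, with ratios to shSC of 1.44 in library 20 and 1.36 in library 21 and lower bounds of the exact 95% intervals of 1.39 and 1.31. Hgf, the ligand gene of Met, was not analysed here. For proteases that activate the ligands of Met and Mst1r, and for the inhibitors of these proteases, 6 genes were tested. Of these, 0 passed in either direction, beside 0.414% called higher and 0.429% called lower over all genes tested. Hgfac, which encodes a protease that activates hepatocyte growth factor, had 1166 scaled counts with shSC, against 979 in library 20 and 627 in library 21. The protease inhibitor gene Spint2 had 3299, 3229 and 2027. Plau, which encodes urokinase, had a log2 fold change of 0.31. The median of the 6 was -0.30, with 0.01 in library 20 and -0.63 in library 21. Library 21 also differed from shSC by GC content, as described below. After a correction for GC and length, the log2 fold change of Hgfac was -0.35, against -0.57 without it. That of Spint2 was -0.27 against -0.37, and that of Plau 0.32 against 0.31. The part of GC in these values was not tested.

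Axl encodes the receptor for Gas6 and a member of the family that also holds Tyro3 and Mertk. It had 5987 scaled counts with shSC, against 8342 in library 20 and 8384 in library 21. The shNF2 libraries were nearly equal, with a ratio of library 21 to library 20 of 1.005 (exact 95% interval 0.975 to 1.04), and both were above shSC. Axl had a log2 fold change of 0.48 ± 0.21 (SE; limma 95% interval 0.03 to 0.93; adjusted p = 0.482). The ratio of Axl to Met scaled counts stayed between 1.29 and 1.38 in the 3 libraries. Pros1, which encodes protein S, a ligand of this family best known for Tyro3 and Mertk, had 91.5 scaled counts with shSC, against 198 in library 20 and 216 in library 21 (log2 fold change 1.17 ± 0.32, SE; limma adjusted p = 0.152). Tyro3 had a log2 fold change of 0.10 and Mertk 0.62, and neither passed. Mertk was low, at 7.79 scaled counts with shSC, 14.6 in library 20 and 10.7 in library 21.

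Igf1r and Insr, the receptors of the insulin family described here, each had 1 shNF2 library above and 1 below shSC. Igf1r encodes the receptor for insulin-like growth factors. It had 159 scaled counts with shSC, against 144 in library 20 and 226 in library 21. Library 20 lay just below shSC, and its ratio to shSC, 0.910 (exact 95% interval 0.720 to 1.15), was within counting error. Library 21 lay above shSC, and the ratio of library 21 to library 20, 1.57 (1.27 to 1.95), was larger than counting error. The fit gave Igf1r a log2 fold change of 0.19, with an SE of 0.35 (limma adjusted p = 0.908), from values of -0.14 in library 20 and 0.51 in library 21. Insr, which encodes the insulin receptor, had 282 scaled counts with shSC, against 253 in library 20 and 293 in library 21. With a log2 fold change of -0.05, Insr had an interval from -0.67 to 0.56 (limma adjusted p = 0.969).

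Genes for secreted proteins that bind insulin-like growth factors, or cleave these binding proteins, were tested in 5 cases. Of these, 0 rose and 1 fell, beside 0.414% and 0.429% of all genes tested. Igfbp6, which encodes a binding protein with a preference for insulin-like growth factor II, fell from 1011 scaled counts with shSC to 413 in library 20 and 317 in library 21 (log2 fold change -1.48 ± 0.27, SE; limma adjusted p = 0.0183). Igfbp4 had 11837 scaled counts with shSC, against 8327 in library 20 and 9358 in library 21 and did not pass. Igfbp7 had a log2 fold change of 0.54 and Htra1, a secreted protease that cleaves binding proteins, 0.79, and neither passed (limma adjusted p = 0.522 and 0.158). Htra1 passed after a correction for GC and length (adjusted p = 0.0194).

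Fgfr1 lay below shSC in both shNF2 libraries, and Ddr1 on either side of it. Fgfr1 encodes a fibroblast growth factor receptor. It had 77.9 scaled counts with shSC, against 57.5 in library 20 and 65.1 in library 21, and both shNF2 libraries were below shSC. With 80, 55 and 67 reads, the ratio to shSC was 0.739 (exact 95% interval 0.514 to 1.05) in library 20 and 0.836 (0.595 to 1.17) in library 21, so a difference from shSC was not detectable at this depth in either library. The fit gave Fgfr1 a log2 fold change of -0.34, with an SE of 0.39 (limma adjusted p = 0.839).

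Ddr1 encodes a receptor that is activated by collagen rather than by a soluble growth factor. It had 334 scaled counts with shSC, against 387 in library 20 and 309 in library 21, so that the shNF2 libraries lay on either side of shSC. Ddr1 had a log2 fold change of 0.05, with an interval from -0.55 to 0.65 (limma adjusted p = 0.970). Ddr2, the other collagen receptor of this family, had 2415 scaled counts with shSC, against 3194 in library 20 and 3736 in library 21. Its log2 fold change was 0.52 ± 0.21 (SE; limma adjusted p = 0.453). The ratio of Ddr1 to Ddr2 scaled counts was 0.138 in shSC, 0.121 in library 20 and 0.0827 in library 21.

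The difference between library 21 and shSC varied with the GC content of transcripts. No mouse annotation was used, so GC was read from human GENCODE v29 transcripts of the same gene as stand-ins. The eighth of genes with the highest GC had a median log2 fold change of -0.32 in library 21 against -0.04 in library 20, and the eighth with the lowest GC had 0.18 against 0.01. The stand-in transcript of Ddr1, at 62.1% GC, fell in the highest eighth. After a trend with GC and length was subtracted, Ddr1 had log2 fold changes of 0.23 in library 20 and 0.12 in library 21, both above shSC. Erbb2, at 60.3% GC, had 0.37 and 0.19, against 0.36 and 0.06 without the correction. Igf1r, at 51.7% GC, had -0.10 and 0.38, and Insr, at 55.3% GC, had -0.17 and 0.07, so both genes stayed on either side of shSC. The part of GC in the differences between the shNF2 libraries was not tested. Egfr had 0.93 and 0.67, Met 0.50 and 0.27, and Axl 0.46 and 0.47. Erbb3 had -0.50 and -0.31, and Fgfr1 -0.44 and -0.28. None of the 9 receptor genes passed after this correction either.

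Levels of different receptors were compared as scaled counts per kilobase of coding sequence, with the coding length of the human gene as a stand-in. On this scale Axl had 2232 in shSC, 3111 in library 20 and 3126 in library 21, and Met had 1058, 1528 and 1441. Among the 9 receptors described, the ranges of Axl and Met over the 3 libraries did not overlap with each other or with those of the others. Ddr1 (112 to 140 over the 3 libraries) and Erbb2 (88.4 to 113) followed and overlapped. Egfr (45.9 to 86.5), Insr (61.1 to 70.6), Erbb3 (45.7 to 64.3) and Igf1r (35.2 to 55.2) formed a group in which each overlapped with its neighbour. Fgfr1 was the lowest, at 22.5 to 30.4. In shSC alone Egfr had 45.9 per kilobase, below Insr at 68.1 and Erbb3 at 64.3. In both shNF2 libraries Egfr was above both of them, with 86.5 and 83.5. This order depended on the length used. Per kilobase of the longest human transcript, Egfr in library 21 had 30.9, below Insr at 32.7 and Erbb3 at 37.3, and in library 20 it had 31.95, above Insr at 28.3 and Erbb3 at 31.1.

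Of 48 other receptor tyrosine kinase genes 18 had a row and 16 were tested. Among all 27 with a row, Axl ranked first and Met second in mean level per coding kilobase, and also when the longest human transcript was used as the length. Axl was first in each library on both scales, but Met was not second in each. Per coding kilobase the range of Met (1058 to 1528) overlapped those of Ddr2 (941 to 1457) and Ryk (926 to 1325), and in library 21 Ddr2 was above Met at 1441. Per transcript kilobase Epha2, an ephrin receptor gene, was above Met in shSC, with 731 against 674. Axl and Met together held 39.1% of the summed level per coding kilobase of these 27 genes in shSC, 44.5% in library 20 and 43.9% in library 21. The other 7 receptors described held 5.43%, 4.85% and 4.74%. Of the 16 other receptor genes tested, 0 rose and 0 fell, beside 0.414% and 0.429% of all genes. Both shNF2 libraries lay above shSC for 9 of the 16, beside 36.1% of all genes. Both lay below it for 5, beside 35.8% of all genes. The median log2 fold change of the 16 was 0.11. Flt1, which encodes a VEGF receptor, had 680 scaled counts with shSC, against 444 in library 20 and 200 in library 21 (limma adjusted p = 0.257). The ephrin receptor gene Epha4 had 693, 1062 and 1173 (log2 fold change 0.69; limma adjusted p = 0.292). Ryk, a Wnt receptor with an inactive kinase domain, had a log2 fold change of 0.44.

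**Figure D3:**
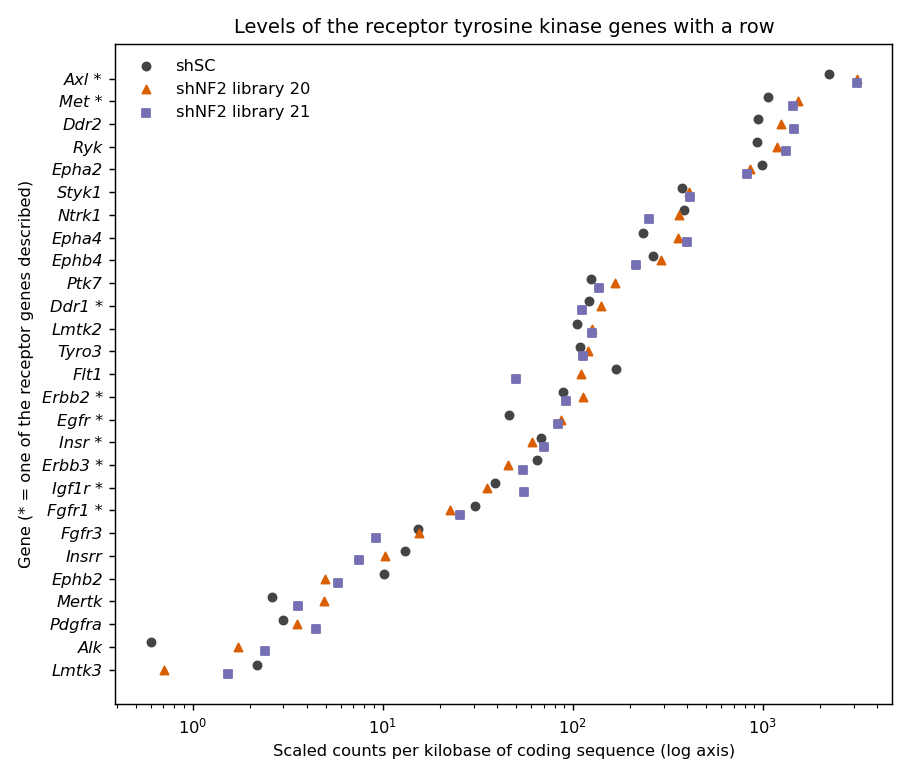
Scaled counts per kilobase of coding sequence (log axis, human coding lengths as stand-ins) of the 27 receptor tyrosine kinase genes with a row, in shSC (circles), library 20 (triangles) and library 21 (squares), 1 point per library. Axl and Met, at the top, hold the 2 highest mean levels, and Fgfr1 is the lowest of the 9 receptor genes marked with a star.

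The genes around the receptors were described by lists. From these lists 40 genes were named and 8 passed, Nf2 among them. They were named for passing or for a small p, so 8 of 40 is not a rate. The counts per list below use all tested genes of the list. Over all genes tested, 0.414% were called higher and 0.429% lower. Adaptors and effectors that bind activated receptors had 0 higher and 0 lower of 24 tested, with a median log2 fold change of -0.07. Pik3cb, a catalytic subunit of PI3-kinase, had 391 scaled counts with shSC, against 609 in library 20 and 726 in library 21 (log2 fold change 0.76; limma adjusted p = 0.285). The adaptor genes Nck1 and Irs1 had log2 fold changes of -0.39 and -0.36, and Pik3r1, a regulatory subunit of PI3-kinase, had 0.33. These 3 did not pass.

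Feedback inhibitors and phosphatases that restrain receptor signalling had 1 higher and 1 lower of 26 tested, with a median of -0.20. Ptprf, which encodes a receptor phosphatase, rose from 54.5 scaled counts with shSC to 268 in library 20 and 247 in library 21 (log2 fold change 2.22 ± 0.32, SE; limma adjusted p = 0.00680). Spry4, a feedback inhibitor of RAS and ERK signalling, fell from 701 to 210 and 236 (-1.65 ± 0.27, SE; limma adjusted p = 0.0119). Socs2, a suppressor of cytokine signalling, had 640, 286 and 268 (-1.21; limma adjusted p = 0.0590), and passed without the filter on low values (adjusted p = 0.0132) and after the GC and length correction (0.0147). The receptor phosphatase gene Ptprk had a log2 fold change of 0.86 and did not pass.

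Ubiquitination and endocytic sorting genes had 1 higher and 0 lower of 28 tested, with a median of 0.00. Cav1, which encodes caveolin-1, the coat protein of caveolae, rose from 4415 scaled counts with shSC to 9698 in library 20 and 8511 in library 21 (log2 fold change 1.04 ± 0.21, SE; limma adjusted p = 0.0388). This call was lost with TMM scaling (adjusted p = 0.0623) and with edgeR (0.0851). Sh3kbp1, an adaptor that links the ubiquitin ligase Cbl to endocytosis, had a log2 fold change of -0.57, the ubiquitin ligase gene Nedd4l 0.77 and the recycling GTPase gene Rab11a -0.43. These 3 did not pass.

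Merlin and the cortical scaffolds linked to it had 1 higher and 1 lower of 18 tested, the lower one being Nf2 itself, with a median of 0.24. Amotl2, which encodes an angiomotin-like protein, rose from 614 scaled counts to 1327 and 1659 (log2 fold change 1.27 ± 0.24, SE; limma adjusted p = 0.0231). The kinase gene Pak1 had 0.57 and Slc9a3r2, a scaffold that binds merlin and ezrin, 0.62, and neither passed. Sheddases and co-receptors had 0 of 16 passing in either direction and a median of -0.21. Plxnb1, a semaphorin receptor that associates with Met, had 163 scaled counts with shSC, against 56.5 in library 20 and 42.8 in library 21 (log2 fold change -1.71 ± 0.39, SE; limma adjusted p = 0.0757), and it passed without the filter on low values (adjusted p = 0.0173). Sdc1, Cd151 and Gpc1, which encode a syndecan, a tetraspanin and a glypican, had -0.62, -0.58 and -0.62 and did not pass.

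Transcription factors tied to receptor genes had 0 of 16 passing in either direction and a median of 0.01. Egr1 had a log2 fold change of -0.51, Tead1 0.51, Jun -0.41 and Foxo1 -0.38. These 8 calls (Nf2, Btc, Areg, Ptprf, Spry4, Cav1, Amotl2 and Igfbp6), and that of the marker Krt7, were all lost under quantile normalization and without a variance trend, with fold changes of the same sign. Across the 12 ligands tested for the receptors described, 0 rose and 2 fell, Btc and Areg, beside 0.414% and 0.429% of all genes tested. The median of these ligands was -0.11. At an unadjusted limma p under 0.05, 2 of them were higher and 4 lower, beside 559 and 629 of the 12813 genes tested.

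**Figure D4:**
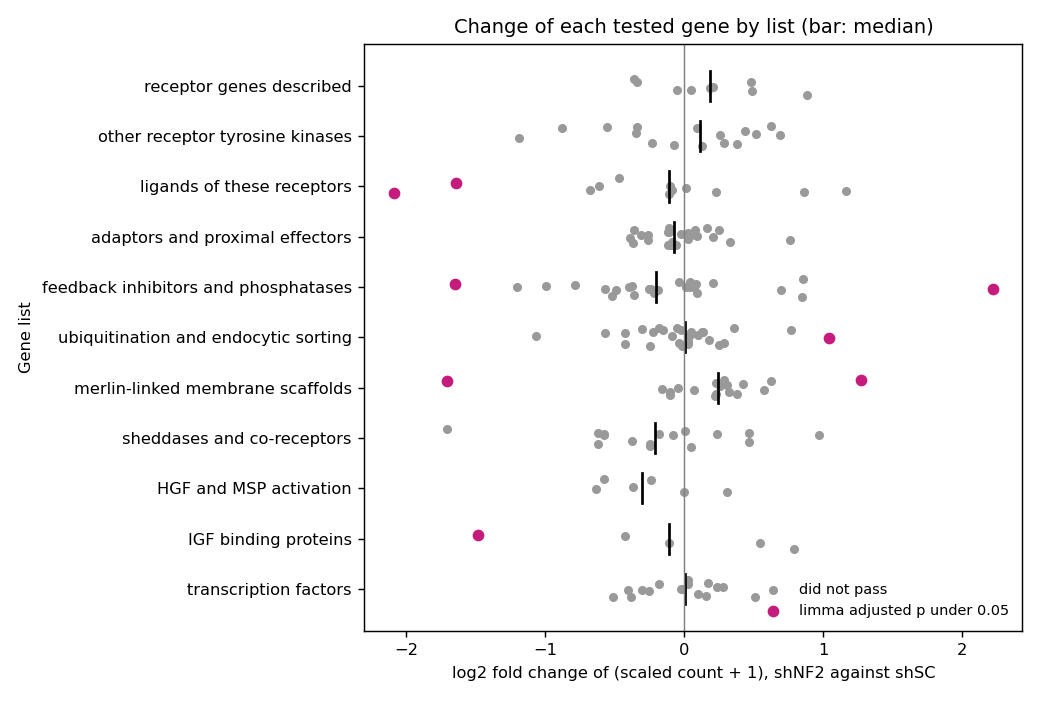
The log2 fold change of (scaled count + 1), shNF2 against shSC, for each tested gene (points) in 11 lists, with a bar at the median of the list and coloured points for genes with a limma adjusted p under 0.05. The points of the receptor genes described run from -0.36 to 0.89 and none is coloured, whereas ligands, inhibitors and scaffolds hold coloured points.

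Egfr had the smallest p of the 9 receptors described. Among 10062 other genes with a mean of at least 100 scaled counts, the 3 whose pair of log2 fold changes in libraries 20 and 21 lay nearest to that of Egfr were Fas, 9030617O03Rik and Epb41l4a. Fas, which encodes a death receptor, had 562 scaled counts with shSC, against 1053 in library 20 and 1017 in library 21, at a distance of 0.0081 on the log2 scale. None of the 3 passed (limma adjusted p = 0.0752 to 0.135), and the likeness rests on 3 libraries. Without the filter on low values 9030617O03Rik (adjusted p = 0.0218) and Epb41l4a (0.0286) passed, and 9030617O03Rik also passed with DESeq2 (0.0486).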

How the data were processed

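Per the submitters' processing notes, cutadapt 1.6, STAR 2.5.0a, HTSeq 0.5.3, DESeq 1.22.1 and the build mm10 were used, with no role or order given. The kit was stranded per the labels; whether the counting used strand is not given there. The authors deposited 1 table of signal values, scaled counts per gene. The deposited values are whole reads over 1 factor for each library; multiplied back, 100% lay within 0.001 of a whole read. A further 4 rows name no gene, held 47.7% to 48.7% of the summed values and were left out.

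For shNF2 against shSC, log2(scaled count + 1) of the 12813 genes with a mean of 10 or more was fitted in limma 3.58.1 (R 4.3.3; variance trend on). P-values were adjusted by Benjamini-Hochberg over all these genes, and 0.05 was the threshold. The pseudocount makes the folds of low genes too small. Only the difference between the shNF2 libraries informs the spread (1 residual and 11.9 prior degrees of freedom); shSC is taken to have the same spread. With 2 libraries against 1, the smallest exact permutation p is 0.333. Alternatives were other pseudocounts, filters, scalings and moderation settings, each shNF2 library left out and, on the recovered reads, edgeR 4.0.16 and DESeq2 1.42.0. A correction for GC and length (mgcv 1.9.3) was added after the data had been seen. Its human stand-ins covered 10318 tested genes (80.5%). The fit was tested on simulated data. It recovered 29% of 100 genes changed by a log2 of 1 and 88% of 100 changed by a log2 of 2. The largest log2 fold change of a receptor gene was 0.89, so the fit could miss changes of this size. The receptors and lists were chosen with earlier results of these data known. Named were the receptors, Nf2, in each list the genes that passed and up to 4 with the smallest p, and the 3 genes nearest to Egfr; 1 gene that this rule names is not reported here. Tyro3, Mertk and the cell type markers, outside this rule, were named for their family or tissue.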

Additional observations from a re-analysis of the deposited data

How the results depend on the processing

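No receptor gene passed under any of the 11 alternatives, and none of the 9 changed the sign of its log2 fold change under them; a p that misses the threshold does not show that a level did not differ. The log2 fold change of Egfr ran from 0.80 to 0.92, that of Met from 0.39 to 0.54 and that of Axl from 0.47 to 0.56. With 1 library left out there is no residual spread, so those values have no test. Over all genes, 53 were called higher and 55 lower. Without the filter on low values these counts were 110 and 122. limma with quantile normalization called 0 and 0, with 882 genes under 0.05 before adjustment, and limma with no variance trend called 0 and 0, with 1036. edgeR called 29 and 52, and DESeq2 41 and 57. At an unadjusted p under 0.05, the number of receptor genes was 3 as reported and fell to 2 with edgeR and 1 without a variance trend. Of the 64 genes followed, calls were lost in 20 combinations of gene and alternative and gained in 9. None of them changed sign under these 11 alternatives; with 1 shNF2 library left out, Igf1r, Insr, Ddr1 and the marker Cd68 did. The cause of these differences was not tested. No paired analysis was possible because the groups share no replicate number. Depth limits Fgfr1 most, with 55 reads in library 20.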
